A study of Mus musculus with 2 samples.

Results

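Glycolysis was followed in sorted LSK cells through the transcripts of 10 enzymes, namely Hk1, Hk2, Gpi1, Pfkl, Aldoa, Gapdh, Pgk1, Eno1, Pkm and Ldha. They were chosen by name, out of 31053 genes in the count table, and all 10 were detected. LSK cells are the bone marrow fraction that lacks lineage markers and carries Sca-1 and c-Kit, and it holds the hematopoietic stem cells and the earliest progenitors. They came from C57BL/6JRj mice of 3 to 5 months (LSK_young) or 22 to 28 months (LSK_old), with 4 mice and 1 library per age and no other treatment named in the labels. CITE-Seq reads a cell's transcripts together with antibody-borne DNA tags, here for CD150, CD48 and CLCA3A1. The cell barcodes end in the suffix 1 or 2, 1 for each library, and no source used here pairs a suffix with an age. A difference between the suffixes is therefore a difference between 2 libraries, and no statement on age is made. With 1 library per age there is no replicate and no test, and the 95% intervals cover counting error only.

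Glycolysis breaks glucose down to pyruvate in the cytosol and yields ATP and NADH. Hematopoietic stem cells that rest in the marrow are known for their reliance on glycolysis, and they draw more on mitochondrial respiration once they enter the cycle. The 10 enzymes span the pathway from its entry to its end. They leave out the steps of Tpi1 and Pgam1, which are among the other enzymes described below. The hexokinases Hk1 and Hk2 phosphorylate glucose, Gpi1 isomerizes the product, and Pfkl, the liver-type subunit of phosphofructokinase, takes part in the committed step. Aldoa splits the sugar, Gapdh reduces NAD+ to NADH, Pgk1 makes ATP, Eno1 forms phosphoenolpyruvate, Pkm makes pyruvate and a further ATP, and Ldha converts pyruvate to lactate.

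Of 4688 cells, 4068 passed the filter (under 10% mitochondrial UMIs and over 1500 genes), 1524 with suffix 1 (median 15023.5 UMIs) and 2544 with suffix 2 (median 14766.5 UMIs). UMIs are unique molecular identifiers, which count captured transcripts. No barcode sequence occurred under both suffixes. The 10 enzymes held 200828 UMIs, or 0.281% of all, and no kept cell was without a UMI of any of them. The 3986 kept cells with tags were divided into 4 gates at the 75th percentile of CD150 and the 25th percentile of CD48 within each suffix. These limits lay at 40 CD150 and 224 CD48 tags for suffix 1 and at 407 and 42 tags for suffix 2, so the same gate name stands for different tag counts in the 2 libraries. Levels are given as counts of a gene per 1000000 UMIs (CPM).

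The transcripts of the tagged proteins and of other markers differed between the gates. Slamf1, which encodes CD150, stood at 16.9 and 64.2 CPM in the CD150-high CD48-low gate and at 0.397 and 2.53 CPM in the CD150-low CD48-high gate, and Cd48 at 0.888 and 1.52 CPM against 97.7 and 134 CPM. Procr, a stem cell surface receptor, stood at 115 and 246 CPM in the CD150-high CD48-low gate (suffix 1 and 2) against 37.7 and 57.5 CPM in the CD150-low CD48-high gate. Flt3, a receptor of multipotent progenitors, stood at 13.3 and 2.09 CPM against 255 and 145 CPM. The sort markers Kit (119 to 172 CPM) and Ly6a, which encodes Sca-1 (199 to 576 CPM), were detected in all 4 gates of both suffixes. Of 9 markers of other cell types, 7 or 8 had a UMI in each gate, and their summed level lay between 48.8 and 473 CPM in the gates of suffix 1 and between 113 and 4988 CPM in those of suffix 2. The highest value was that of the CD150-low CD48-high gate of suffix 2, nearly all of it Igkc, an immunoglobulin chain of B-lineage cells, at 4946 CPM. The T cell marker Cd3e was at 0 in every gate. The 27 cells that held over 0.1% of their UMIs in these markers (3 of suffix 1 and 24 of suffix 2) were left out in a repeat. Each enzyme's ratio then stayed within its counting interval between gates, by Mki67 over all kept cells and between suffixes. The same held for the CLCA3A1 and Flt3 splits. Ratios by Mki67 within a gate, bins of Mki67 UMIs and groups by depth were not repeated without these cells.

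The 10 genes lie on 6 chromosomes of GRCm38 and are protein-coding. The minus-strand genes are Hk1 (chr10:62268855-62379908), Hk2 (chr6:82725025-82774454), Gpi1 (chr7:34201330-34230336), Pfkl (chr10:77986947-78010083), Aldoa (chr7:126795234-126800751) and Gapdh (chr6:125161715-125166467). On the plus strand lie Pgk1 (chrX:106187100-106203699), Eno1 (chr4:150236721-150248879), Pkm (chr9:59656368-59679375) and Ldha (chr7:46841475-46855627). Gapdh and Eno1 have near-identical copies, which makes their counts uncertain. Of the 53-base windows in the last 500 bases of the transcript, 89.7% for Gapdh and 73.7% for Eno1 also occurred in transcripts of other genes, against at most 6.70% for the other 8. Hk1, Gpi1, Aldoa and Gapdh overlap a gene on the opposite strand, and Pkm overlaps Gm49759 on the same strand, a gene with no row in the count table.

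The stretches upstream of the start are shown for Aldoa and Hk2, which were called lower in cells with a Mki67 UMI in the results below, for Pgk1, which was called higher, and for Gapdh, which had a positive ratio in both suffixes but was not called. Each line gives the 250 bases before a RefSeq transcript start (GRCm38.p6), read 5′ to 3′ on the strand of the gene. Capitals mark ACGTG or GCGTG on either strand, the core letters to which hypoxia-inducible factors and some other factors bind.
Aldoa (chr7:126799255-126799504, minus strand): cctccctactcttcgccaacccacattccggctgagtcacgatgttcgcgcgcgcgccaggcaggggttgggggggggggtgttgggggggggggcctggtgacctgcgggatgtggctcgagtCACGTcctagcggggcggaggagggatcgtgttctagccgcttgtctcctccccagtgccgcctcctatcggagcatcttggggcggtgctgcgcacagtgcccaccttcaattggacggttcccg
Hk2 (chr6:82774455-82774704, minus strand): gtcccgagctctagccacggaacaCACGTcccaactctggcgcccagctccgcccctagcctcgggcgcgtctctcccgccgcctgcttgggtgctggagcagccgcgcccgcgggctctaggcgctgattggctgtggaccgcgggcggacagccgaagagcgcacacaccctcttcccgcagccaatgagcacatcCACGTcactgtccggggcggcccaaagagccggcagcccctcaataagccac
Gapdh (chr6:125165774-125166023, minus strand): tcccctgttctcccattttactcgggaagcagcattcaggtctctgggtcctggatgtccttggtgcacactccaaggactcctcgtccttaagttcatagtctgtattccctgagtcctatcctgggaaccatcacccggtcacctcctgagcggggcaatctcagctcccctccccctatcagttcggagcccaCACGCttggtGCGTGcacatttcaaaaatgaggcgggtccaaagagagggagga
Pgk1 (chrX:106186850-106187099, plus strand): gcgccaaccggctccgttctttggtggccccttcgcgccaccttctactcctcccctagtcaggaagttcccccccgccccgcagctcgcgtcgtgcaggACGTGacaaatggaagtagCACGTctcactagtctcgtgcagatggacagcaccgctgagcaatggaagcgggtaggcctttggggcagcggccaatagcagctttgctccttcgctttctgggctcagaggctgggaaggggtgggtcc
The Aldoa line is 1 of 3 RefSeq windows of that gene. All 10 genes had a window, and over the full windows, with the 50 bases after the start included, ACGTG or GCGTG occurred in 13 of their 17 windows, and in at least 1 window of 9 genes. Of all 32851 RefSeq windows of that length, 43.8% held either motif, as did at least 1 window of 46.7% of 27025 genes. CACGTG, which overlaps ACGTG, occurred in 1 of the 17 windows, that of Ldha, against 7.15% of all windows. The letters were present upstream of genes called lower and called higher, and a match is a description of the sequence only.

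The summed level of the 10 enzymes differed little between gates. It was 2476 and 2617 CPM in the CD150-high CD48-low gate, 2441 and 2591 CPM in the CD150-low CD48-low gate, 2726 and 2792 CPM in the CD150-high CD48-high gate, and 2721 and 3001 CPM in the CD150-low CD48-high gate. In both suffixes the CD48-low gates were below the CD48-high gates, while the 2 CD48-low gates had overlapping intervals. The median cell gave between 0.232% and 0.286% of its UMIs to the 10 enzymes.

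Behind this narrow range, single enzymes went in opposite directions. Aldoa was at 385 and 382 CPM in the CD150-high CD48-low gate against 311 and 309 CPM in the CD150-low CD48-high gate. Gapdh was at 308 and 389 CPM against 399 and 613 CPM, and Pgk1 at 227 and 173 CPM against 309 and 291 CPM. Aldoa was thus high, and Gapdh and Pgk1 low, in the gate of the stem cell markers, and for these 3 genes no interval of one gate overlapped that of the other within a suffix. Hk2 had the lowest counts, with 13.3 and 23.2 CPM against 7.94 and 10.7 CPM. The 2 CD48-low gates resembled each other in Aldoa and Pgk1, and their intervals overlapped for these genes in both suffixes.

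**Figure D1:**
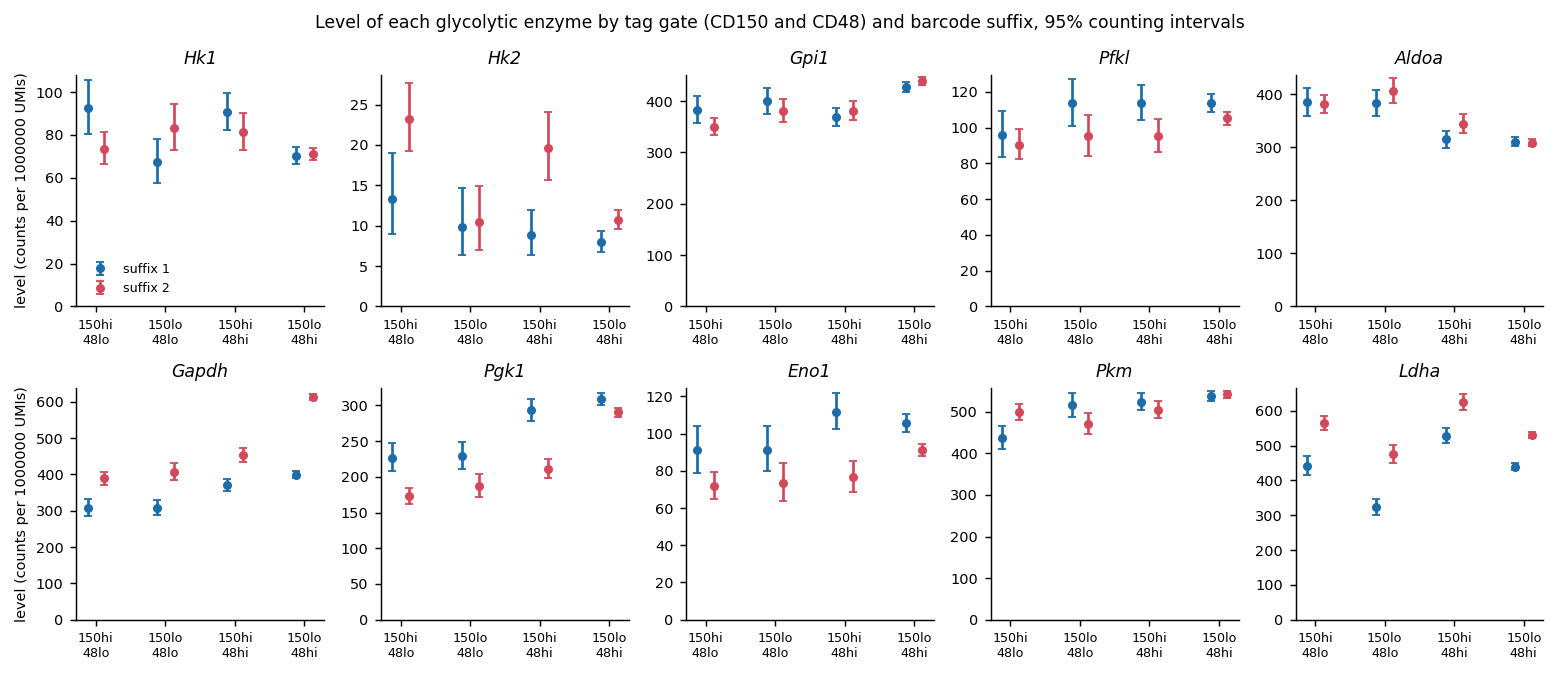
Level of each enzyme (counts per 1000000 UMIs, axis from 0) in the 4 tag gates, as CD150 and CD48 high (hi) or low (lo), with 1 point per barcode suffix and bars for 95% exact Poisson intervals. Gapdh and Pgk1 are lowest in the 2 CD48-low gates of both suffixes (Gapdh at 308 CPM in suffix 1), and Aldoa is highest there (385 CPM in the CD150-high CD48-low gate of suffix 1).

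The first comparison asked how the CD150-high CD48-low gate, where long-term stem cells are sought, differed from the CD150-low CD48-high gate, which holds mostly progenitors. Hk2 was 1.91-fold higher, and Gapdh and Pgk1 were lower, with mean log2 ratios of -0.51 and -0.60. A gene was called when it was at least 25% higher, or at least 20% lower, in both suffixes. Of the 10 enzymes 1 was called higher and 2 lower, against 15.2% higher and 18.9% lower of 10785 genes with at least 50 UMIs per suffix. The share of enzymes called was thus near that of all genes, and their median log2 ratio was -0.22 against -0.05 for all genes.

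At the entry of the pathway, Hk2 had a log2 ratio of 0.75 in suffix 1 and 1.11 in suffix 2 (mean 0.93, interval 0.609 to 1.252). Hk1 had 0.39 and 0.05. Hk2 was thus higher in the stem cell gate of both libraries, while the interval of Hk1 in suffix 2 ran from -0.11 to 0.20. The mean of Hk2 was also positive in the CD150-high CD48-high gate, as given below.

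In the middle and lower part of the pathway, Aldoa had a log2 ratio of 0.31 in both suffixes, just short of the limit of 25% higher. With median-of-ratios scaling in place of total UMIs it was 0.34 and 2 enzymes were called in each direction. Among cells of 10000 to 20000 UMIs the mean of Aldoa was -0.015. Gapdh had -0.37 and -0.66 (mean -0.51, interval -0.58 to -0.45) and Pgk1 had -0.44 and -0.75 (mean -0.60, interval -0.68 to -0.51). These adjacent enzymes, which carry the oxidation and the ATP-forming step that follows it, were lower together. Eno1 had -0.22 and -0.34, Pfkl -0.25 and -0.22, Gpi1 -0.16 and -0.32, and Pkm -0.30 and -0.12, which kept one direction but were not called. Their means stayed negative over the alternatives, but that of Pfkl was as small as -0.052 and that of Pkm -0.11. Ldha had 0.01 and 0.09, but its mean of 0.05 ranged from -0.037 with a stricter cell filter to 0.34 among cells of 10000 to 20000 UMIs. The 10 enzymes summed had a mean log2 ratio of -0.17 (interval -0.19 to -0.14).

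Cell division and depth moved with the gates. A UMI of Mki67, which is transcribed in cells in the cycle, was found in 6.98% and 1.04% of cells in the CD150-high CD48-low gate and in 30.0% and 31.8% of those of the CD150-low CD48-high gate. The median cell of the first gate had 12917 and 13477 UMIs and that of the second 16356 and 16320. The gates were therefore also compared in cells without a Mki67 UMI, and the enzymes were described by Mki67 and by depth. The part of the B-lineage transcripts, of depth and of the gate limits in the differences was not tested beyond these values.

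Among cells without a Mki67 UMI, the higher Aldoa level of the stem cell gate was not seen: its log2 ratio was 0.015 in suffix 1 and -0.025 in suffix 2 (mean interval -0.07 to 0.06), and over the alternatives its mean lay between -0.071 and 0.14. Hk2 was still called higher, with 0.53 and 0.98, although its interval in suffix 1 ran from -0.13 to 1.15. Gapdh had -0.29 and -0.49 and Pgk1 had -0.29 and -0.55, each short of 20% lower in suffix 1. Pfkl, with -0.35 and -0.33, was called lower, so that 1 enzyme was called higher and 1 lower, against 11.0% and 14.5% of 10081 genes. With a stricter cell filter the mean of Pfkl was -0.19, which is short of the limit. The direction of Hk2, Gapdh and Pgk1 was thus the same as with all cells, while Aldoa was even. Ldha had 0.08 and 0.24, and its mean of 0.16 lay between 0.033 with a stricter cell filter and 0.34 among cells of 10000 to 20000 UMIs. The summed level had a mean log2 ratio of -0.15, close to that of all cells.

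**Figure D2:**
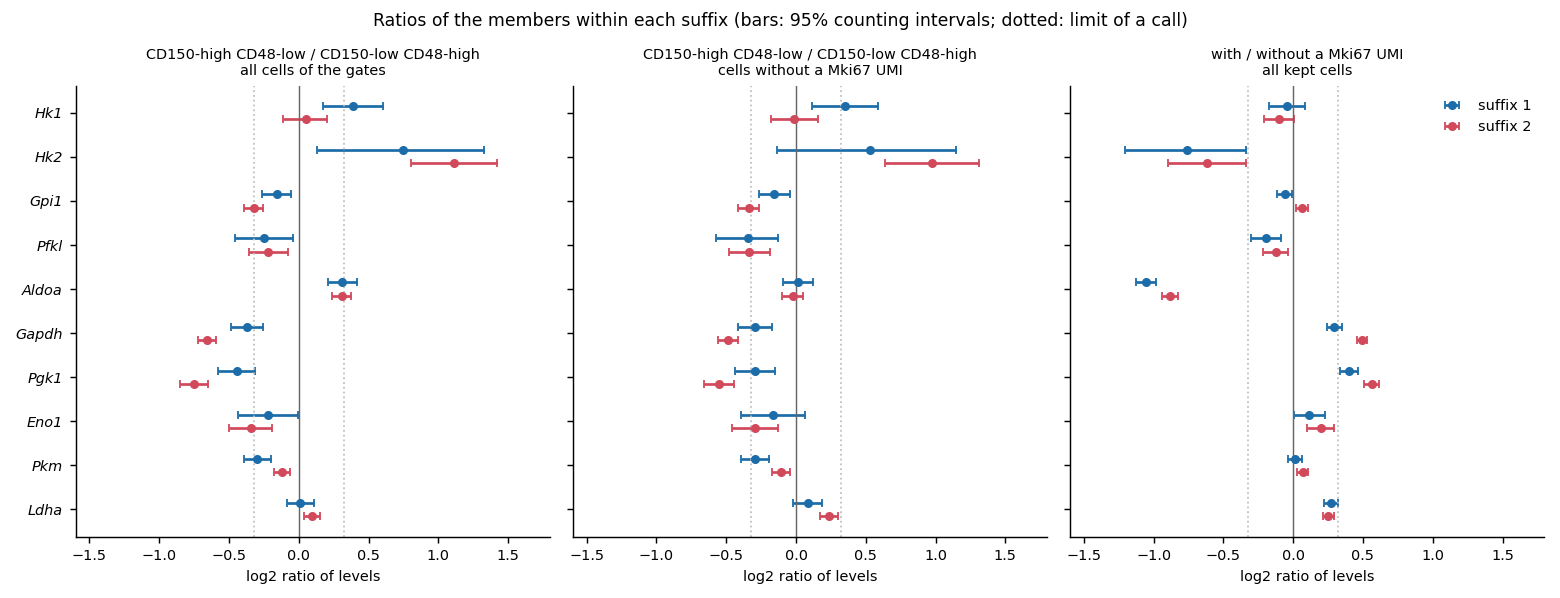
Log2 ratio of the level of each enzyme, with 1 point per suffix, bars for 95% exact counting intervals and dotted lines at 25% higher and 20% lower; the panels give the CD150-high CD48-low against the CD150-low CD48-high gate in all cells, the same in cells without a Mki67 UMI, and cells with against without a Mki67 UMI. Aldoa lies at 0.31 in the left panel, at 0.015 and -0.025 in the middle and at -1.06 and -0.88 on the right, where Gapdh and Pgk1 lie above 0.

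The next comparison set the 374 and 554 cells with a Mki67 UMI against the 1150 and 1990 without. Aldoa showed the clearest difference: its level was 195 and 211 CPM in cells with a Mki67 UMI and 405 and 389.8 CPM in cells without. Hk2 was at 6.08 and 9.59 CPM against 10.3 and 14.7 CPM. Pgk1 was at 343 and 332 CPM against 260.3 and 225 CPM, and Gapdh at 427 and 684 CPM against 348 and 487 CPM. With Mki67, Aldoa was thus on average at 0.511 of its level without. Of the 10 enzymes, Pgk1 was called higher and Aldoa and Hk2 lower, against 14.4% higher and 20% lower of 11212 genes. With median-of-ratios scaling Gapdh was called as well, and 2 enzymes stood on each side.

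The ratios of these genes had the same sign in both libraries, while their sizes differed beyond the counting intervals for Aldoa, Pgk1 and Gapdh. Aldoa had a log2 ratio of -1.06 and -0.88 (mean -0.97, interval -1.02 to -0.92), and Hk2 -0.76 and -0.62. Pgk1 had 0.40 and 0.56 and Gapdh 0.30 and 0.49. Ldha, the lactate-forming enzyme, had 0.27 and 0.25 and Eno1 0.12 and 0.20, although Ldha was at -0.019 among cells of 10000 to 20000 UMIs, while Hk1, Gpi1 and Pkm lay between -0.10 and 0.07 in each suffix. Pfkl had -0.20 and -0.13, and its mean of -0.16 turned to 0.034 with Top2a, another gene of cycling cells, in place of Mki67. The 10 enzymes summed had a log2 ratio of 0.0056 in suffix 1 (interval -0.016 to 0.027) and 0.13 in suffix 2 (interval 0.11 to 0.14), so that the mean of 0.07 rested on suffix 2. This small value turned to -0.10 among cells of 10000 to 20000 UMIs, to -0.034 when ribosomal protein and mitochondrial genes were left out of the total, and to -0.0026 without Gapdh.

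CPM is a share of a cell's UMIs, and cells with a Mki67 UMI had more of them, with a median of 27637 and 26640 against 13880.5 and 13764. Counted per cell, the 10 enzymes gave 73.1 and 82.7 UMIs with Mki67 and 39.8 and 41.2 without. Aldoa gave 5.31 and 5.68 UMIs per cell with Mki67 and 6.03 and 5.70 without. The number of Aldoa UMIs per cell was therefore nearly the same, while that of Pgk1 was 2.41 and 2.72 times and that of Gapdh 2.25 and 2.58 times as high. A larger total and a higher level of a transcript are both contained in these per-cell values.

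Within cells with a Mki67 UMI the level of Aldoa was lower the more Mki67 UMIs a cell had. At 0, 1, 2 to 4 and 5 or more Mki67 UMIs, Aldoa was at 405, 339, 252 and 149 CPM in suffix 1. In suffix 2 it was at 389.8, 308, 246 and 180.2 CPM. No interval overlapped the next one in either suffix. Gapdh, at 348, 423, 491 and 414 CPM in suffix 1 and 487, 656, 746 and 675 CPM in suffix 2, was highest at 2 to 4 Mki67 UMIs. The summed level was likewise lower at 5 or more Mki67 UMIs (2552 and 2939 CPM) than at 1 (2999 and 3220 CPM). The median depth was higher with each step, up to 29542 and 29244.5 UMIs. Counted per cell over the same bins, Aldoa gave 6.03, 7.23, 5.94 and 4.51 UMIs in suffix 1. In suffix 2 it gave 5.70, 6.10, 5.86 and 5.48 UMIs per cell.

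**Figure D3:**
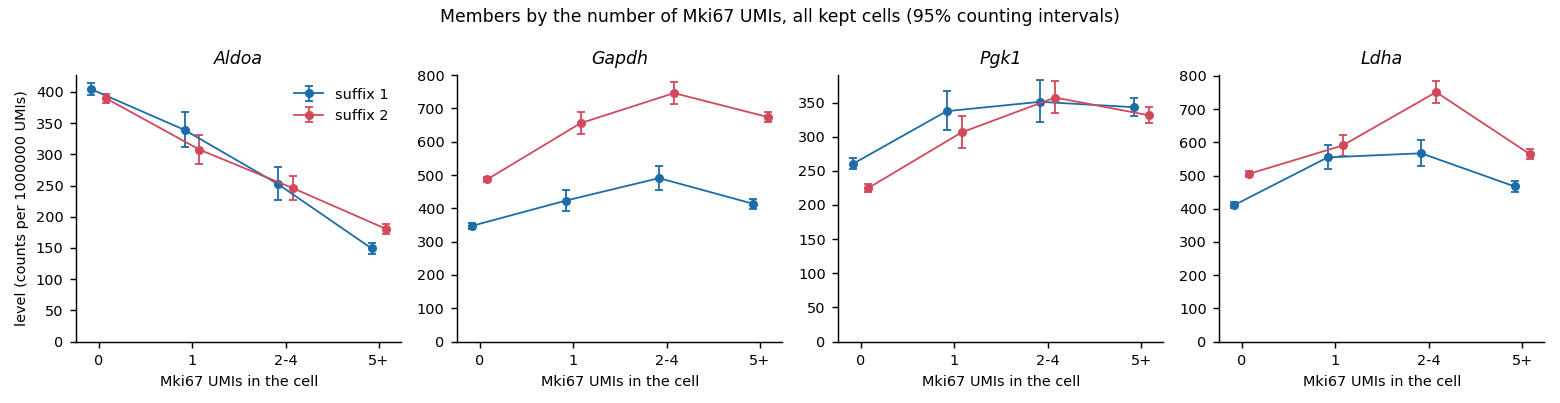
Level (counts per 1000000 UMIs, axis from 0) of Aldoa, Gapdh, Pgk1 and Ldha in kept cells with 0, 1, 2 to 4 and 5 or more Mki67 UMIs, 1 line per suffix, with 95% exact Poisson intervals. Aldoa goes from 405 to 149 CPM in suffix 1 and from 389.8 to 180.2 CPM in suffix 2, and Gapdh is highest at 2 to 4 UMIs.

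The lower level of Aldoa with Mki67 was seen in each gate. Its log2 ratios were -0.99 and -0.73 in the CD150-high CD48-low gate, with only 12 and 4 cells with a Mki67 UMI, and -0.92 and -0.62 in the CD150-low CD48-low gate, with 11 and 7 such cells. They were -1.02 and -0.52 in the CD150-high CD48-high gate and -1.07 and -0.91 in the CD150-low CD48-high gate. The sign was the same in all 8 strata. For Gapdh it was not: its ratios were 0.08 and -0.16 in the CD150-high CD48-low gate and 0.20 and -0.45 in the CD150-low CD48-low gate, against 0.44 and 0.56 and 0.20 and 0.35 in the 2 CD48-high gates. Pgk1 had 0.09 and -0.04 in the CD150-high CD48-low gate (interval of the mean -0.42 to 0.47), 0.39 and 0.55 in the CD150-low CD48-low gate, 0.32 and 0.51 in the CD150-high CD48-high gate and 0.35 and 0.41 in the CD150-low CD48-high gate, so the higher level was not seen in the first of them. The small number of cells with Mki67 in the CD48-low gates leaves wide intervals there, from -0.37 to 0.29 for the mean of Gapdh in the CD150-high CD48-low gate.

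Depth moved with several enzymes in cells without a Mki67 UMI. These cells, of all gates together, were divided into 3 groups of like size by total UMIs within each suffix. From the shallowest through the middle to the deepest group, Gapdh was at 275, 324 and 398 CPM in suffix 1 and at 393, 438 and 569 CPM in suffix 2. Pgk1 was at 207, 244 and 296 CPM and at 176, 202 and 265 CPM. Ldha was at 298, 358 and 499.6 CPM and at 439.7, 473 and 561 CPM. These enzymes took a larger share of the UMIs in deeper cells of both libraries, and the summed level went from 2300 to 2908 CPM and from 2507 to 3047 CPM. Aldoa, with 399, 431 and 389.5 CPM in suffix 1 and 396, 395 and 383 CPM in suffix 2, showed no such order. The gates also differed in depth among these cells, with a median of 11907 and 11191 UMIs in the CD150-low CD48-low gate and of 14478 and 14310 in the CD150-low CD48-high gate, and depth was not separated from the gate here. Hk1 went the other way, from 89.7 to 70.9 CPM and from 82.2 to 72.4 CPM.

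**Figure D4:**
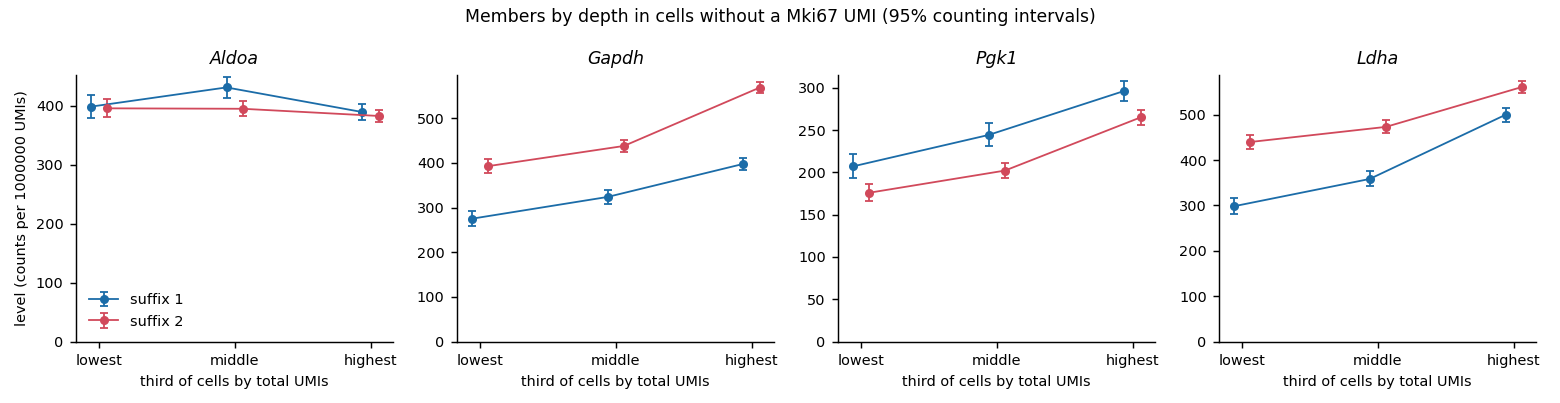
Level (counts per 1000000 UMIs, axis from 0) of Aldoa, Gapdh, Pgk1 and Ldha in cells without a Mki67 UMI, in 3 groups of cells by total UMIs within a suffix, with 95% exact Poisson intervals. Gapdh, Pgk1 and Ldha are highest in the deepest group (Ldha at 499.6 and 561 CPM), and Aldoa stays between 383 and 431 CPM.

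With depth held between 10000 and 20000 UMIs per cell, the values of Gapdh and Pgk1 with Mki67 were smaller and that of Aldoa was still large. The mean log2 ratio with against without a Mki67 UMI was -0.72 for Aldoa, 0.20 for Pgk1 and 0.07 for Gapdh, over 71 and 98 cells with a Mki67 UMI. Between the CD150-high CD48-low and the CD150-low CD48-high gate it was -0.36 for Pgk1, -0.32 for Gapdh and 0.73 for Hk2, and -0.015 for Aldoa. The values of Pgk1 and Gapdh were thus smaller than in all cells, Gapdh no longer passed the limit of 20% lower, and Aldoa was even. Depth was narrowed by this window but not matched between the groups.

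The other 2 gates were compared with the same CD150-low CD48-high gate, so the 3 gate comparisons share their reference cells. In the CD150-low CD48-low gate Gapdh (log2 ratio -0.37 and -0.59) and Pgk1 (-0.43 and -0.63) were called lower and no enzyme was called higher, against 14.0% lower and 12.9% higher of 10743 genes. Aldoa had 0.30 and 0.40, and Ldha -0.44 and -0.16. With each cell thinned to 9000 UMIs the means were -0.36 for Gapdh, -0.44 for Pgk1, 0.23 for Aldoa and -0.20 for Ldha, in place of -0.48, -0.53, 0.35 and -0.30. In the CD150-high CD48-high gate no enzyme was called, against 9.21% higher and 5.01% lower of 10894 genes. Ldha had 0.27 and 0.24 there, and Gapdh -0.11 and -0.44. Hk2 was called in neither gate. Its mean was 0.14 in the CD150-low CD48-low gate and 0.51 in the CD150-high CD48-high gate (0.33 to 0.53 over alternatives). The summed log2 ratio was -0.18 for the first of these gates and -0.05 for the second. Ldha was thus higher in the CD150-high CD48-high gate and lower in the CD150-low CD48-low gate than in the reference, with intervals of its mean from 0.21 to 0.30 and from -0.37 to -0.23.

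CLCA3A1 is the surface protein that the study followed in stem cells, and its tag column in the deposited table is named Clca1. Within the CD150-high CD48-low gate, cells above the median of the CLCA3A1 tag of their suffix (25 and 214 tags) were set against the rest, 85 against 87 and 190 against 193 cells. Of 9 enzymes with enough UMIs none was called, against 1.34% higher and 0.985% lower of 5886 genes. The summed log2 ratio was 0.00 with an interval of -0.04 to 0.05. The largest mean among the tested enzymes was that of Gpi1, with -0.34 in suffix 1 and -0.05 in suffix 2. Within the CD150-low CD48-high gate, cells with a Flt3 UMI were set against cells without. None of the 10 enzymes was called, against 5.94% higher and 7.62% lower of 10566 genes. Hk1 had -0.30 and -0.43, Aldoa -0.36 and -0.17, and Pgk1 0.13 and 0.30, and the summed log2 ratio was 0.02 (interval -0.01 to 0.04). With each cell thinned to 9000 UMIs, the mean of Aldoa was -0.020 in place of -0.26, that of Pgk1 0.096 in place of 0.22 that of Gapdh 0.045 in place of 0.15 and that of Hk1 -0.22 in place of -0.37.

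The 2 libraries differed in single enzymes within gates. For suffix 2 against suffix 1, Gapdh had log2 ratios of 0.34, 0.40, 0.29 and 0.62 in the CD150-high CD48-low, CD150-low CD48-low, CD150-high CD48-high and CD150-low CD48-high gates. Ldha had 0.35, 0.56, 0.24 and 0.27, and Hk2 0.80, 0.075, 1.15 and 0.43. Pgk1 had -0.39, -0.29, -0.47 and -0.09, and Eno1 -0.34, -0.31, -0.54 and -0.22. Gapdh and Ldha were thus higher, and Pgk1 and Eno1 lower, in suffix 2 in all 4 gates, each beyond counting error, while the interval of Hk2 in the CD150-low CD48-low gate ran from -0.74 to 0.90, but with a stricter cell filter the mean of Ldha turned from 0.36 to -0.18, that of Gapdh was 0.20 in place of 0.41 and that of Eno1 -0.67 in place of -0.35. With the gates pooled the mean of Pgk1 was -0.16 in place of -0.31. None of the 10 passed the limit in all 4, against 2.17% higher and 1.51% lower of 8621 genes, and the median of all genes was -0.09. With median-of-ratios scaling Gapdh (mean 0.49) was called higher, against 2.82% higher and 0.974% lower of all genes. The summed log2 ratio was 0.09 (interval 0.07 to 0.10), and it turned to -0.086 with a stricter cell filter. Library preparation, depth and age cannot be told apart here.

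The rest of the pathway was read from lists of genes fixed by name. Of 18 other enzymes of glycolysis, 9 had enough UMIs, and between the stem cell and the progenitor gate 4 were called higher and 3 lower, against 15.2% and 18.9% of all genes. Higher were Aldoc (log2 ratio 0.82), Ldhb (0.79), Pfkp (0.68) and Bpgm (0.52), and lower were Hk3 (-1.58), Pgam1 (-0.99) and Tpi1 (-0.53). The shares of isoenzymes within a step differed between the gates: Ldhb made up 28.1% and 22.2% of the lactate dehydrogenase UMIs in the stem cell gate against 21.1% and 12.9% in the progenitor gate, and Pfkp 25.2% and 33.4% of the phosphofructokinase UMIs against 15.8% and 20.6%. The other 9 of the list were not tested, as they had under 50 UMIs in the 2 gates of a suffix.

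Of 19 genes of entry and exit, 17 were tested and 4 were called in each direction, near the 15.2% higher and 18.9% lower of all genes. The glucose transporters Slc2a3 (0.87), Slc2a8 (0.85) and Slc2a1 (0.67) were higher, as was Pdp1 (0.94), which activates pyruvate dehydrogenase. The lactate exporter Slc16a3 (-1.36), Pdhx (-0.79) and Pdk1 (-0.55), which belong to the pyruvate dehydrogenase complex and its inhibition, and the mitochondrial pyruvate carrier Mpc1 (-0.44) were lower. Slc2a3 was at 60.8 and 73.1 CPM in the stem cell gate and at 37.0 and 35.9 CPM in the progenitor gate.

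The pentose phosphate pathway branches off glycolysis and supplies NADPH and ribose. Of its 7 genes, all tested, 3 were called lower in the stem cell gate and none higher, against 18.9% lower and 15.2% higher of all genes. The 3 were Tkt (-0.82), Taldo1 (-0.76) and Pgls (-0.58). Tkt was at 390 and 225 CPM against 545 and 506 CPM. The median log2 ratio of the 7 was -0.24 in suffix 1 and -0.56 in suffix 2, against -0.02 and -0.08 for all genes. Of the 5 regulators of fructose bisphosphate, 3 were tested and Tigar (-1.44) was called lower. Of 10 genes of the hypoxia response, 9 were tested, with Cited2 (1.04) and Meis1 (0.59) called higher and the oxygen sensors Egln3 (-1.42) and Egln1 (-0.47) called lower. Hif1a itself, at 31.1 and 21.3 CPM against 29.9 and 26.3 CPM, was not called.

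In cells without a Mki67 UMI, where 11.0% of all genes were called higher and 14.5% lower between the same gates, several of these calls were lost. Fewer regulators and fewer genes of entry and exit had enough UMIs to be tested, so a missing call there can be a gene not tested. Of 9 other enzymes 3 were called higher and 2 lower, without Aldoc and Tpi1. Of 16 genes of entry and exit 3 were called higher, the glucose transporters Slc2a1, Slc2a3 and Slc2a8, and 2 lower. Of the 7 pentose phosphate genes 4 were called lower, with Pgd (-0.48) added to the 3 above, and none higher. Of 9 hypoxia genes Cited2 (0.86) was called higher and Egln3 and Egln1 lower, and the call of Meis1 was lost. Neither of the 2 regulators tested was called.

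The same lists were read by Mki67, where 14.4% of all genes were called higher and 20% lower. Aldoc (-1.51) and Ldhb (-0.91) were called lower and Tpi1 (0.53) higher in cells with a Mki67 UMI, of 9 other enzymes tested. Both aldolase genes with enough UMIs, Aldoa and Aldoc, were thus lower. Of 17 genes of entry and exit, Slc2a3 (-0.99) and the kinase Pdk2 (-0.97) were called lower, and the monocarboxylate transporter Slc16a1 (0.70) and Dlat (0.36), a subunit of pyruvate dehydrogenase, higher, which is no larger a share than that of all genes. Of 4 regulators tested, Pfkfb2 (-0.95), Pfkfb3 (-0.73) and Pfkfb4 (-0.46), which set the level of the activator of phosphofructokinase, were lower, and Tigar (0.61), which opposes them, was higher. None of the 7 pentose phosphate genes was called. Of 9 hypoxia genes, Cited2 (-0.76) and Meis1 (-0.63) were lower and none was higher. These values mix the gates. Within the CD150-low CD48-high gate 1265 of 10566 genes were called higher and 1623 lower. Of 3 regulators tested there, only Pfkfb3 (-0.51) was called, and no other gate had a regulator with enough UMIs. Outside the regulators, the calls above other than Dlat were kept in the CD150-low CD48-high gate. In the CD150-high CD48-low gate Meis1 (0.13), Slc2a3 (-0.10) and Aldoc (0.006) were not called, while Cited2, Ldhb and Tpi1 kept their calls.

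Across 16 strata (4 gates, 2 suffixes, with or without a Mki67 UMI), the enzymes did not vary as one. The Pearson r of log2(CPM + 10) of each enzyme with the sum of the other 9 was 0.57 for Gapdh, 0.44 for Gpi1 and 0.38 for Pkm, and -0.31 for Hk1 and -0.35 for Aldoa. The pair most alike was Pgk1 and Eno1 (r = 0.84), and the pair most opposed was Hk2 and Eno1 (r = -0.59). The range over the strata was widest in relative terms for Hk2, from 0 to 23.3 CPM, and was 191 to 416 CPM for Aldoa. A mean of at least 20 CPM was reached by 6348 genes, the enzymes and listed genes included. Outside the enzymes and the lists, the 5 most like the summed enzymes were Sfxn1 (r = 0.89), Mrpl41 (0.83), Gnl3 (0.82), Slc25a3 (0.82) and Atad3a (0.81). Sfxn1 encodes a mitochondrial serine transporter and Slc25a3 the mitochondrial phosphate carrier. These values describe 16 strata that share 2 libraries and their depth, the smallest of 4 cells.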

How the data were processed

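LSK cells were profiled by CITE-Seq (10x Genomics 3′ chemistry) in 1 library per age. The authors made the UMI counts with Cell Ranger 3.1.0, whose aggregation step normalized the 2 libraries to each other before the counts were deposited; the processing notes name mm10 and GRCm38, and the annotation is not given in the sources used here. The authors deposited the antibody tags, counted with CITE-seq-Count, on a log10 scale. The genes and lists were chosen with earlier results of these data known.

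The cell filter of the study's methods was applied. UMIs were summed per gate and suffix, and CPM ratios were taken within each suffix and averaged with equal weight. Ratios carry exact conditional binomial intervals, levels exact Poisson intervals and shares exact Clopper-Pearson intervals, all at 95%; mean log2 ratios carry a normal interval from the counts, and all cover counting error only. Genes with at least 50 UMIs per compared pair and stratum were compared with the limit of 25% higher or 20% lower. The shares of single hexokinases are not reported here. No p-value was computed, and no doublet caller was run. Tag counts of 0 were ranked lowest. Named are all 10 enzymes, for each list the called genes of largest mean log2 ratio (at most 4 per comparison; Pfkp, Bpgm, Tpi1, Slc2a1, Pdhx, Pdk1, Mpc1, Hif1a and, by Mki67, Hk3 were named beyond this rule after their values were seen), and the 5 genes most like the sum. Groups by depth, bins of Mki67 UMIs and the markers of other cells were also described after values were seen. Alternatives covered the cell filter, gate limits, scaling, thinning, a depth window, the cycling marker and the fold. Recovery of known ratios was tested on simulated counts. Positions come from GENCODE (GRCm38) and upstream sequences from RefSeq. Python 3.11.15, numpy 2.4.6, scipy 1.17.1, pandas 2.3.3 and matplotlib 3.10.9 were used.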

Additional observations from a re-analysis of the deposited data

Results flagged for a closer look

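Between the 2 libraries, the difference of cells with and without a Mki67 UMI had opposite signs, each with a counting interval that did not include 0, for 1 of the 10 enzymes and for 1 summed level; other opposite signs, such as those of Gapdh in the CD48-low gates, are not counted here because an interval included 0. These differences between libraries were not tested. Gpi1 had a log2 ratio of -0.062 in suffix 1 and 0.065 in suffix 2. Hk3, a hexokinase outside the 10, had -0.31 in suffix 1 and 0.48 in suffix 2, with intervals that also left out 0. The 10 enzymes summed had -0.040 in suffix 1 and 0.070 in suffix 2 within the CD150-low CD48-high gate.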

How the results depend on the processing

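The summed levels moved with the processing. Of 590 values of single enzymes under alternatives, 466 stayed within the counting interval, 117 moved out of it and 7 reversed from an interval that did not include 0. The interval is wide for genes with few UMIs, so staying within it does not mean a small change. With Mki67, Aldoa moved out in 7 of 12 alternatives, Gapdh in 6 of 12 and Hk2 in 0 of 12. Between the gates, Gapdh and Pgk1 each moved out in 5 of 11. Some of the 466 and of the 117 also changed sign, from a value whose interval included 0. The cause was not tested for any of them. With only cells of 10000 to 20000 UMIs, the summed log2 ratio was -0.10 between the CD150-high CD48-low and the CD150-low CD48-high gate, -0.10 with against without a Mki67 UMI, -0.10 between these gates without Mki67 cells and 0.055 between suffixes, and reversed values were -0.015 for Aldoa between the gates and -0.12 for Pkm and -0.019 for Ldha with Mki67. With totals that leave out ribosomal protein and mitochondrial genes, these 4 summed ratios were -0.065, -0.034, -0.079 and 0.15, and Pkm with Mki67 was -0.061. With median-of-ratios scaling they were -0.13, 0.13, -0.11 and 0.17, and 1 enzyme was called between suffixes instead of none. Thinned to 9000 UMIs per cell, the sum was -0.13 between the gates, 0.015 with Mki67 and -0.14 for the CD150-low CD48-low gate, and Aldoa in the CD150-high CD48-high gate was -0.046. With over 2500 genes and under 5% mitochondrial UMIs, which left 20 and 37 cells in the CD150-high CD48-low gate, the sum was 0.13 with Mki67, -0.23 between the gates without Mki67 cells and -0.086 between suffixes, where Ldha was -0.18. Without Gapdh the sum was -0.10 between the gates, -0.0026 with Mki67 and 0.026 between suffixes. The sum with Mki67 was 0.018 without the 5% of deepest cells, 0.044 with at least 2 Mki67 UMIs and 0.16 with Top2a in place of Mki67, which gave 0.034 for Pfkl and -0.084 for the sum between the gates in cells without it. Pooled gates gave 0.12 between suffixes. At 1.5-fold, 1 enzyme was called between the gates in place of 3, and with Mki67 2 in place of 3, both lower, so that the call of Pgk1 was lost. Over its 12 alternatives Aldoa with Mki67 stayed between -1.14 and -0.62, and over 11 alternatives between the gates Hk2 stayed between 0.41 and 1.11, Gapdh between -0.55 and -0.32 and Pgk1 between -0.65 and -0.36. Thinning and median-of-ratios scaling of the other gates and splits, the sums with near-identical copies and the cells without other markers were chosen after seeing the data.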
